A study of Mus musculus with 23 samples.

Results

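The genes described are 9 that encode or serve the receptors of B cells: Cd79a, Cd79b, Ms4a1, Cd22, Fcer2a, Cr2, Bank1, Siglecg and Tnfrsf13c. They were taken by symbol from the 17644 genes of a table of mouse bone in TPM, a level scaled for transcript length and library size, and matched by gene ID to a count table of 67228 gene entries, and all 9 were among the 14364 genes that held at least 10 counts in at least 5 mice and were tested. Polyadenylated RNA came from marrow-depleted femur and tibia of 23 female C57BL6/N mice, aged 11 weeks, with 1 library per mouse. WT Control (n = 5) were wild-type mice given saline, and WT T1D (n = 6) were wild-type mice with type 1 diabetes of 3 weeks' duration, induced with streptozotocin at 100 mg/kg per injection. KO Control (n = 6) and KO T1D (n = 6) were mice with global knockout of Sarm1, a gene for an enzyme of axon degeneration, given the same saline or streptozotocin. Streptozotocin destroys the insulin-producing cells of the pancreas, so it is a chemical model of the disease. Marrow was spun out of the shafts by centrifugation, and cells left behind contribute to these libraries.

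B cells carry an antigen receptor made of membrane immunoglobulin and the signalling chains CD79A and CD79B. Bone marrow makes the precursors of these cells, which express the signalling chains early, and it also holds mature B cells that recirculate from blood. Coreceptors set how strongly the receptor signals: complement receptor 2 amplifies it, whereas CD22 and SIGLECG, which bind sialic acid, restrain it. The survival of mature B cells depends on BAFF, a cytokine that binds the receptor encoded by Tnfrsf13c. The genes are therefore not all confined to mature cells, and Bank1 encodes a scaffold protein inside the cell rather than a surface protein. In bulk libraries, fewer B cells and less RNA per B cell cannot be told apart.

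On the GRCm38.p6 assembly, the same as that named for the alignment, RefSeq places Cd79a at chr7:24897497-24901858, Cd22 at chr7:30865404-30880342 and Siglecg at chr7:43408192-43418349. Cd79b lies at chr11:106311341-106314562, Ms4a1 at chr19:11249679-11266149, Fcer2a at chr8:3680280-3694174 and Cr2 at chr1:195136811-195176880. Bank1 lies at chr3:136053363-136326141 and Tnfrsf13c at chr15:82221742-82224380. The annotated span of Ms4a1 overlaps that of 4930526L06Rik, that of Fcer2a overlaps Trappc5, and that of Cr2 overlaps Gm32313. The library kit marks strand, but whether counting used it is not given in the sources used here, so values of these 3 genes could include reads of an overlapping gene.

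RefSeq windows that run from 250 bases before to 50 bases after a transcription start (300 bases) were matched to 7 of the 9 genes, in 10 windows. The windows of Cd79a and Cd22 are shown because both genes followed the rest of the set closely across mice, and that of Cr2 because it did not. Capitals mark CAGGTG, the E-box letters bound by E2A proteins of the B lineage, on either strand (read as CACCTG on the other), and in Cd22 also CCCNNGGG, the letters of an EBF-type site.
Cd79a, chr7:24897247-24897546, plus strand: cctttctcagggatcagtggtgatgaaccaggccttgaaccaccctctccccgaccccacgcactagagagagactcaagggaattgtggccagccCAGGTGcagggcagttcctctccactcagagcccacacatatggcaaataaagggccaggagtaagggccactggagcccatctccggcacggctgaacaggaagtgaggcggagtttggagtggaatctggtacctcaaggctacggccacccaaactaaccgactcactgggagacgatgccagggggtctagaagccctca
Cd22, chr7:30878979-30879278, minus strand: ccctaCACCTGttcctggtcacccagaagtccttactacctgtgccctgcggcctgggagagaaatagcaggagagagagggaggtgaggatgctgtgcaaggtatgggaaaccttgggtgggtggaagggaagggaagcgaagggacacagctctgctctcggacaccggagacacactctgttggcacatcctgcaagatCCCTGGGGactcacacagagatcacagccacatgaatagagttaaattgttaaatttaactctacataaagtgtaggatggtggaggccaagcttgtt
Cr2, chr1:195176670-195176969, minus strand: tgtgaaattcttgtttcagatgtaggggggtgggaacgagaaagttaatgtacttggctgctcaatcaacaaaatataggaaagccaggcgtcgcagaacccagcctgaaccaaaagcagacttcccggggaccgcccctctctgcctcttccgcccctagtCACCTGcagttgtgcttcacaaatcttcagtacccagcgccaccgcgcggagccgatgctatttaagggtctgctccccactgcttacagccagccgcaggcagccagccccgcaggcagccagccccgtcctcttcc

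CAGGTG was present in 6 of the 10 windows, from 6 of the 7 genes (Bank1, Cd22, Cd79a, Cr2, Fcer2a and Tnfrsf13c), and in 20.21% of all 32851 RefSeq windows. CCCNNGGG was present in 2 of the 10 windows (Bank1 and Cd22) and in 13.67% of all windows. CAGCTG, another E-box, was present in 2 of the 10 windows (Fcer2a and Tnfrsf13c) and in 16.3% of all. GAGGAA, an ETS-type core, was present in 2 windows (Cd79a and Siglecg) and in 28.28% of all. ATGCAAAT, the octamer, was present in 0 of the 10 and in 1.74% of all. Both strands were searched, matches of different motifs shared no bases in the 10 windows, and a match describes letters only. Cr2, whose level did not follow the set, and Cd79a, whose level did, both held the E-box.

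Before the group comparisons, the libraries that stand apart need to be stated. Total counts ran from 16938101 to 20135592 per library. Of the 11 WT mice, 4 carry IDs that begin with A17 (A1757 in WT Control and A1764, A1787 and A1758 in WT T1D), whereas the other 7 WT mice and the 12 KO mice carry IDs from A36 to A39. What the ID series stands for is not given in the sources used here, and no KO mouse has an A17 ID. The WT T1D mice A3905 and A3906 stood apart in bone genes, with a summed TPM of the 12 osteoblast and osteocyte genes of 3824 and 3352, against 31159 to 70827 in the other 21 mice. Sarm1 was measured at 15 to 32 counts in WT Control, 6 to 21 in WT T1D, 5 to 29 in KO Control and 15 to 28 in KO T1D. Mean Sarm1 was 1.17 CPM (CPM is a count scaled to the library's TMM-adjusted total) in WT Control and 0.80 CPM in KO Control, and 0.69 CPM in WT T1D and 1.19 CPM in KO T1D, with ranges that overlapped in both treatments. Its level in KO was thus below WT among Control mice (edgeR adjusted p = 0.999) and above WT among T1D mice (0.281), neither called. Which part of the gene the allele removes is not given in the sources used here, so these low counts do not check the labels.

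Per length, the 9 genes spanned a wide range of levels in bone. Cd79a was highest in all 23 mice, with a median of 328 TPM, followed in all 23 by Cd79b (median 102 TPM) and then Siglecg (median 35.7 TPM). Ms4a1 (median 17.8 TPM) exceeded Cd22 (median 14.96 TPM) in 19 of the 23 mice, Cd22 exceeded Tnfrsf13c (median 13.1 TPM) in 16, and Tnfrsf13c exceeded Fcer2a (median 11.2 TPM) in 17. The order among these 4 was therefore not the same in every mouse. Fcer2a exceeded Bank1 (median 9.73 TPM) in 19 mice, and Cr2 (median 1.03 TPM) was lowest in all 23. The 2 signalling chains pair in the receptor complex, and the ratio of Cd79a to Cd79b, in TPM, ran from 2.43 to 4.55 over the 23 mice with a median of 3.15.

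Cd79a encodes the first signalling chain, and its 5 WT Control mice measured 632 (A1757), 226, 328, 354 and 294 TPM. The WT T1D mice measured 492 (A1764), 460 (A1787), 490 (A1758), 77.6 (A3905), 92.0 (A3906) and 275 (A3909) TPM. WT T1D thus held both the lowest libraries of the series and 3 of its 4 highest, and it had no library between 275 and 460 TPM. KO Control ran from 229 to 385 TPM (median 340) and KO T1D from 296 to 406 TPM (median 351), so the KO groups lay inside the range of the WT mice. Mean TPM was 367 ± 156 (SD, n = 5) in WT Control, 314 ± 195 (SD, n = 6) in WT T1D, 330 ± 59.3 (SD, n = 6) in KO Control and 349 ± 46.0 (SD, n = 6) in KO T1D.

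Cd79b encodes the second signalling chain and repeated this layout. It measured 148 (A1757), 65.9, 113, 77.8 and 87.7 TPM in WT Control. In WT T1D it measured 119, 151 and 135 TPM in A1764, A1787 and A1758, and 28.1, 37.9 and 83.3 TPM in A3905, A3906 and A3909. The 3 A17 mice and the other 3 mice of WT T1D did not overlap. KO Control ran from 78.2 to 129 TPM (median 104) and KO T1D from 85.2 to 129 TPM (median 100.5).

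**Figure D1:**
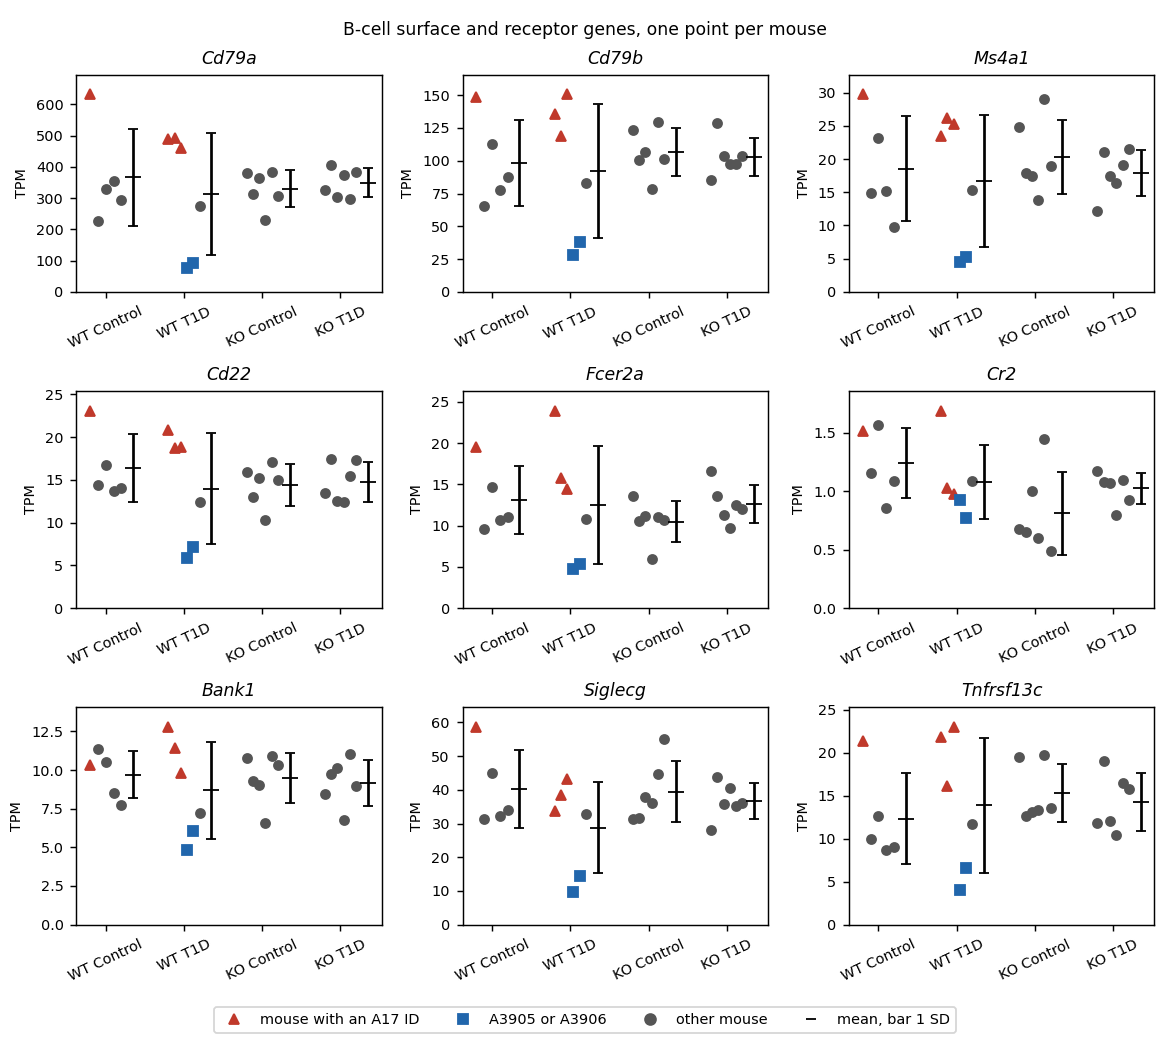
TPM of each of the 9 genes (vertical axis, from 0) in each mouse, by group, with the group mean and 1 SD beside the points. Red triangles are the 4 A17 mice, blue squares A3905 and A3906, and grey circles the other 17 mice; in Cd79a the triangles sit between 460 and 632 TPM and the squares at 77.6 and 92.0 TPM.

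Among the restraining receptors, Cd22 measured 23.1 TPM in A1757 and 13.7 to 16.7 TPM in the other 4 WT Control mice. In WT T1D, Cd22 measured 18.8, 18.9 and 20.8 TPM in the A17 mice A1764, A1787 and A1758, against 5.88, 7.11 and 12.4 TPM in A3905, A3906 and A3909. It ran from 10.3 to 17.1 TPM in KO Control (median 15.1) and from 12.4 to 17.4 TPM in KO T1D (median 14.5), and these groups overlapped each other over most of their ranges. Siglecg measured 58.7 TPM in A1757 and 31.5 to 45.1 TPM in the rest of WT Control. In WT T1D, Siglecg was 9.73 and 14.5 TPM in A3905 and A3906 and 33.0 to 43.2 TPM in the other 4 mice, so here the A17 mice were not apart from WT Control. KO Control reached 55.0 TPM for Siglecg in A3766, and KO T1D ran from 28.0 to 43.7 TPM.

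Cr2, the complement coreceptor, is also a gene of follicular dendritic cells, and its level was low, at 34 to 146 counts per library. It measured 1.52, 1.16, 1.57, 0.86 and 1.09 TPM in WT Control, and 0.77 to 1.69 TPM in WT T1D with a median of 1.01. A3905 and A3906, the lowest libraries for the other 8 genes in TPM (and for 5 of the 9 in CPM), measured 0.93 and 0.77 TPM for Cr2 and were not the lowest. The share of all genes with this pair lowest was not counted. TPM was lower in WT T1D over all genes tested (median log2 fold change -0.24, limma on log2(TPM + 1)), so a low rank in TPM need not be particular to these genes. The lowest Cr2 values were in KO Control, where 4 of 6 mice measured 0.49 to 0.68 TPM and the others 1.00 and 1.45 TPM. KO T1D ran from 0.80 to 1.17 TPM.

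Ms4a1 encodes CD20, a membrane protein of B cells, and measured 29.7 TPM in A1757 and 9.81 to 23.1 TPM in the rest of WT Control. In WT T1D it was 4.43 and 5.28 TPM in A3905 and A3906, 15.4 TPM in A3909 and 23.5 to 26.1 TPM in the A17 mice. KO Control ran from 13.8 to 29.1 TPM and KO T1D from 12.2 to 21.5 TPM. Fcer2a, which encodes the low-affinity IgE receptor CD23 of mature B cells, measured 19.6 TPM in A1757 and 9.60 to 14.7 TPM in the rest of WT Control. In WT T1D, Fcer2a ran from 4.72 TPM in A3905 to 23.9 TPM in A1758, the highest library of the series. It ran from 5.96 to 13.6 TPM in KO Control and from 9.72 to 16.6 TPM in KO T1D.

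Tnfrsf13c, the BAFF receptor, measured 21.4 TPM in A1757, above the 8.68 to 12.6 TPM of the other 4 WT Control mice. In WT T1D it was 16.1, 23 and 21.9 TPM in A1764, A1787 and A1758, and 4.01, 6.53 and 11.7 TPM in A3905, A3906 and A3909. KO Control (12.6 to 19.8 TPM) and KO T1D (10.4 to 19.1 TPM) lay between these sets of WT T1D mice or overlapped them. Bank1, the scaffold protein, varied least among the 9 on the log2 scale, with an SD of 0.30 over 23 mice against 0.62 for Cd79a. It measured 10.3, 11.4, 10.5, 8.49 and 7.74 TPM in WT Control and 4.85 to 12.8 TPM in WT T1D. KO Control ran from 6.55 to 10.9 TPM and KO T1D from 6.80 to 11.1 TPM for Bank1.

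The WT groups spread more widely than the KO groups in 7 of the 9 genes, where the coefficient of variation in TPM was higher in both WT groups than in both KO groups. The coefficient of variation of Cd79a in TPM was 62.1% in WT T1D and 42.5% in WT Control, against 18.0% in KO Control and 13.2% in KO T1D, and for Tnfrsf13c it was 56.6% and 42.9% against 22.1% and 23.5%. Cr2 and Bank1 were the exceptions: Cr2 was at 24.2% in WT Control and 43.9% in KO Control, and Bank1 at 15.7% in WT Control and 17.2% in KO Control. Without A1757, WT Control was at 18.4% for Cd79a, 23.3% for Cd79b and 34.9% for Ms4a1, still above both KO groups. It was then at 17.6% for Tnfrsf13c and 9.42% for Cd22, below both KO groups, and between them for Fcer2a and Siglecg. In WT T1D, Cd79a was at 3.68% among the 3 A17 mice and 74.2% among the other 3. Difference in spread was not tested. The share of all genes with a wider spread in both WT groups was not counted, so this is not shown to be particular to the 9 genes. The mean over the 9 genes of log2(CPM + 0.5) ran from 4.01 to 5.77 in WT T1D and from 4.87 to 5.31 in KO T1D. Its 4 highest values belonged to A1758, A1757, A1787 and A1764, and its 2 lowest to A3905 and A3906. Among the other 4 WT Control mice this mean was 4.68 to 5.09, and in KO Control it was 4.51 to 5.26.

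**Figure D2:**
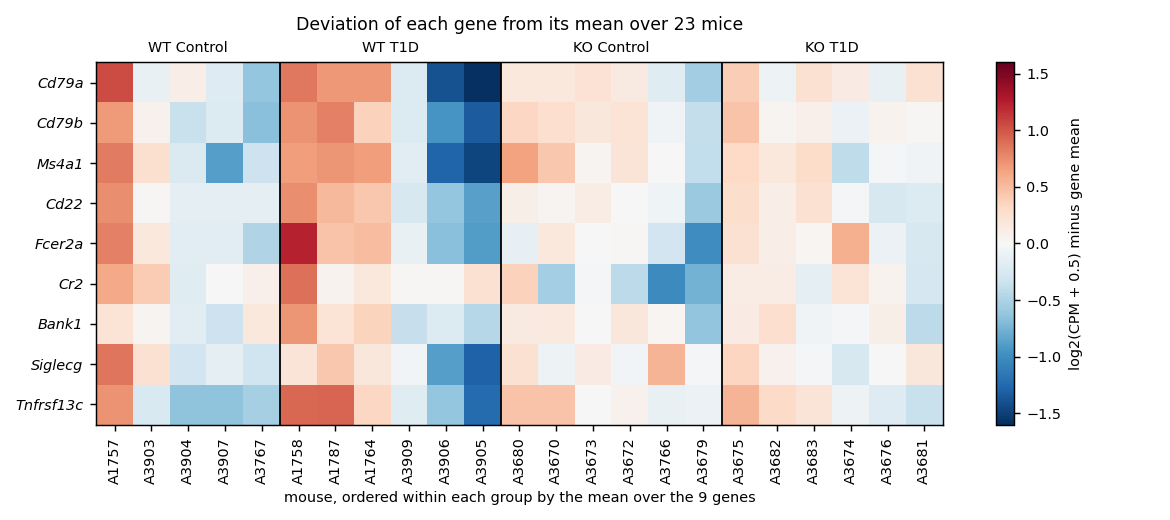
Each cell gives log2(CPM + 0.5) of one gene (rows) in one mouse (columns, by group) minus that gene's mean over 23 mice, with red above and blue below the mean. The columns of the 4 A17 mice are red for most genes and those of A3905 and A3906 are blue for most genes, with Cr2 near or above its mean in both.

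The genes moved together from mouse to mouse, apart from Cr2. Over 23 mice, the Pearson correlation of each gene with the mean of the other 8 was 0.96 for Cd22, 0.95 for Cd79b, 0.92 for Cd79a, 0.91 for Ms4a1, 0.89 for Tnfrsf13c and 0.88 for Fcer2a. It was 0.78 for Siglecg, 0.76 for Bank1 and 0.32 for Cr2. Among pairs, Cd79a and Cd79b had the highest correlation, 0.94, and Cr2 and Siglecg the lowest, 0.03. Without the A17 mice and A3905 and A3906, the correlations with the other genes in the remaining 17 mice were 0.85 for Cd79b, 0.84 for Cd22 and 0.74 for Ms4a1, but 0.35 for Siglecg and 0.23 for Cr2. These are descriptions: the points of one mouse share a library, and the groups are pooled. Of all genes with a mean of at least 1 CPM outside the set, those whose level was most like the mean of the 9 over 23 mice included Fcmr (Pearson r 0.94), Blk (0.92), Pou2af1 (0.91) and H2-Ob (0.91). Fcmr encodes the IgM Fc receptor, Blk a kinase of the antigen receptor, Pou2af1 a transcriptional coactivator of B cells and H2-Ob a chain of the class II peptide-loading machinery.

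The first comparison asked whether diabetes changed these genes in wild-type bone. None did at an edgeR quasi-likelihood adjusted p under 0.05: 0 of 9 were called, where 2.33% of all genes tested were called (334 of 14364, 215 higher and 119 lower in T1D). No member had an unadjusted p under 0.05, DESeq2 also called 0, and the lowest edgeR adjusted p was 0.484, for Tnfrsf13c. The log2 fold changes, T1D against Control, were 0.40 ± 0.32 (SE) for Tnfrsf13c, 0.18 ± 0.30 for Fcer2a, 0.13 ± 0.29 for Cd79b and 0.11 ± 0.19 for Bank1. They were 0.06 ± 0.34 for Ms4a1, 0.06 ± 0.24 for Cr2, 0.00 ± 0.24 for Cd22, -0.02 ± 0.35 for Cd79a and -0.25 ± 0.25 for Siglecg. Of the 9 values 7 were above 0 and 2 below, with a median of 0.06 beside -0.01 over all genes tested. The 95% interval for Cd79a ran from -0.74 to 0.70, so a change within these bounds was not excluded by these libraries.

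This near-zero difference in WT mice varied in size and direction with the libraries kept and the terms in the fit. Within the A36 to A39 mice (4 Control and 3 T1D), 8 of the 9 genes were lower in T1D, with a median log2 fold change of -0.45. There 0 of the 9 were called by edgeR (lowest adjusted p 0.0610), where 15.4% of all genes tested were called. Without A3905 and A3906, all 9 were higher in T1D, with a median of 0.40 and 0 called, where 0% of all genes tested were called. With the ID series as a term in the fit the median was -0.35 and 0 of the 9 were called, where 479 of 14364 genes were called higher and 323 lower. With that term and without A3905 and A3906 the median was -0.05 and 0 were called, where 0 of all genes tested were called. Direction therefore could not be assigned for the set. In the TPM values (limma on log2(TPM + 1)) the median was -0.28, beside -0.24 over all genes tested, so most of that shift was common to all genes. A3905 and A3906 also held the highest erythroid marker scores, the mean log2 CPM of 13 red cell genes, at 8.96 and 9.16 against 7.73 to 8.73 in the other mice. Their part in the result was not tested beyond the fit with that score as a covariate. In that fit the median was 0.08 and 0 of the 9 were called, where 0 of all genes tested were called.

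The same question in KO mice gave 0 of 9 genes called, where 0% of all genes tested were called (0 of 14364, with 452 at an unadjusted p under 0.05 and 0 called by DESeq2). The log2 fold changes, T1D against Control, were 0.40 ± 0.23 (SE) for Cr2, 0.29 ± 0.29 for Fcer2a, 0.12 ± 0.33 for Cd79a and 0.09 ± 0.23 for Cd22. They were 0.01 ± 0.18 for Bank1, -0.01 ± 0.28 for Cd79b, -0.05 ± 0.30 for Tnfrsf13c, -0.08 ± 0.24 for Siglecg and -0.13 ± 0.33 for Ms4a1. No member had an unadjusted p under 0.05, all 9 adjusted p-values were 1.00, and the median was 0.01 beside 0.00 over all genes tested. Averaged over both genotypes, 0 of 9 were called, where 0.111% of all genes tested were called, and the lowest adjusted p was 0.500. The interaction of diabetes and genotype had 0 of 9 called, where 0% of all genes tested were called (0 by DESeq2 as well, with 1467 genes at an unadjusted p under 0.05), and a lowest adjusted p of 0.723.

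**Figure D3:**
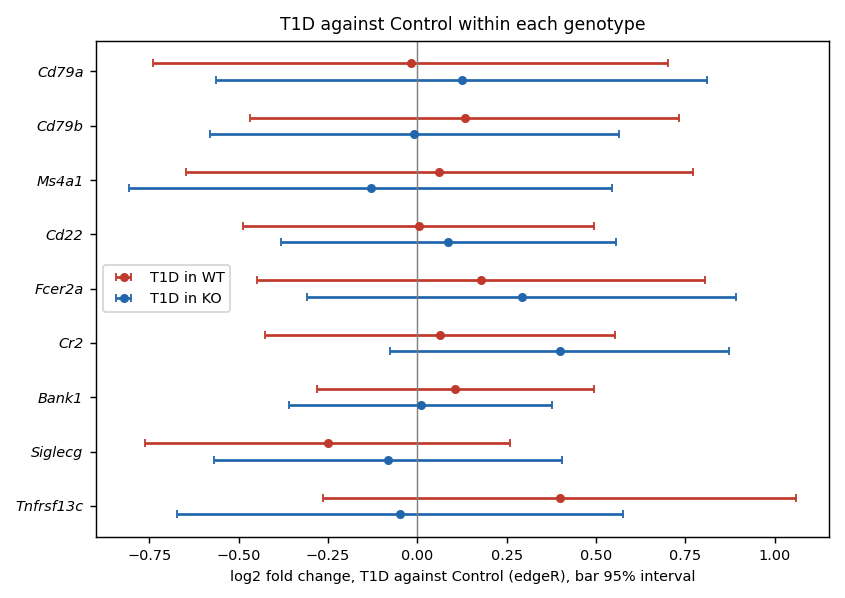
Log2 fold change of T1D against Control (horizontal axis, edgeR) for each gene within WT (red) and KO (blue) mice, with 95% intervals. All 18 intervals include 0; the points run from -0.25 (Siglecg) to 0.40 (Tnfrsf13c) in WT and from -0.13 (Ms4a1) to 0.40 (Cr2) in KO.

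Loss of Sarm1 was compared within each treatment, with edgeR as above. DESeq2 and limma also called 0 of the 9 genes in both comparisons. In Control mice 0 of 9 genes were called, where 0.0278% of all genes tested were called, with a median log2 fold change, KO against WT, of 0.01 and a lowest adjusted p of 0.999; only Cr2 had an unadjusted p under 0.05. Cr2 had a mean of 5.07 CPM in WT Control and 3.34 CPM in KO Control. In T1D mice 0 of 9 were called, where 0.0905% of all genes tested were called, with a median of -0.08, a lowest adjusted p of 0.559 and 0 at an unadjusted p under 0.05. This second result depended on which WT mice were kept. Within the A36 to A39 mice, 6 of the 9 genes (Cd79a, Cd79b, Ms4a1, Cd22, Siglecg and Tnfrsf13c) were higher in KO T1D than in WT T1D, with log2 fold changes from 0.60 to 1.07 and edgeR adjusted p-values from 0.0166 to 0.0449, where 10.7% of all genes tested were called (5.63% higher and 5.08% lower in KO). There the WT T1D group was A3905, A3906 and A3909. With the ID series as a term and all 23 mice, 5 were called (the same genes but Ms4a1), where 4.62% of all genes tested were called (2.46% higher and 2.16% lower). Without A3905 and A3906, and with the A17 mice kept, all 9 values were below 0, with a median of -0.37. There 0 of the 9 were called, where 3 of 14364 genes were called higher and 1 lower in KO. With the ID series as a term and without A3905 and A3906, the median was 0.33 and 0 of the 9 were called, where 2 of 14364 genes were called higher and 2 lower in KO. The difference between genotypes in diabetic mice thus changed direction with the WT libraries used. It also changed with the measure. With limma on log2(TPM + 1) and all 23 mice, 8 of the 9 were higher in KO T1D. Their median was 0.22, beside 0.17 over all genes tested, and 0 of the 9 were called, where 722 of 14364 genes were called higher and 22 lower.

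The ID series itself was compared among WT mice after these values had been seen, by adding a term for the A17 mice to the fit of the 4 groups, so its p-values describe a contrast chosen on these data. All 9 values were above 0 in the A17 mice relative to the A36 to A39 WT mice and 8 of the 9 were called, where 1.98% of all genes tested were called (284 of 14364, 203 higher and 81 lower in the A17 mice). The increase was 2.90-fold for Cd79a (95% interval 2.13 to 3.94, edgeR adjusted p = 0.000818), 2.64-fold for Ms4a1 (1.86 to 3.74, 0.00432), 2.57-fold for Tnfrsf13c (1.94 to 3.40, 0.00102) and 2.38-fold for Cd79b (1.82 to 3.11, 0.00143). It was 2.31-fold for Fcer2a (adjusted p = 0.00552), 2.07-fold for Cd22 (0.000793), 1.93-fold for Siglecg (0.00697) and 1.55-fold for Bank1 (0.0439). Cr2 was at 1.34-fold (95% interval 0.949 to 1.90, adjusted p = 0.475). In CPM, every A17 mouse was above every other WT mouse for 7 of the 9 genes, all but Cr2 and Siglecg, where the same held for 1.43% of all genes tested. For Cd79a, Ms4a1 and Cd22 every A17 mouse was also above all 12 KO mice. The share of all genes tested for which that held was not counted, so it describes these genes only.

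Cd79a, Cd79b, Cd22 and Tnfrsf13c were called in the A17 mice under all 8 other settings tried and without any 1 of the 23 mice. The call for Bank1 was lost in 17 of the 23 fits that left out 1 mouse and in 5 of the 8 other settings. Without A3905 and A3906, 4 of 9 remained called, where 0.104% of all genes tested were called, with a median log2 fold change over the set of 0.91 in place of 1.21, and Ms4a1 (0.99, adjusted p = 0.0920), Fcer2a (0.95, 0.115), Siglecg (0.68, 0.110) and Bank1 (0.55, 0.279) were not. A17 mice make up 1 of 5 WT Control, 3 of 6 WT T1D and 0 of 12 KO mice, so the ID series and the group cannot be fully told apart.

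**Figure D4:**
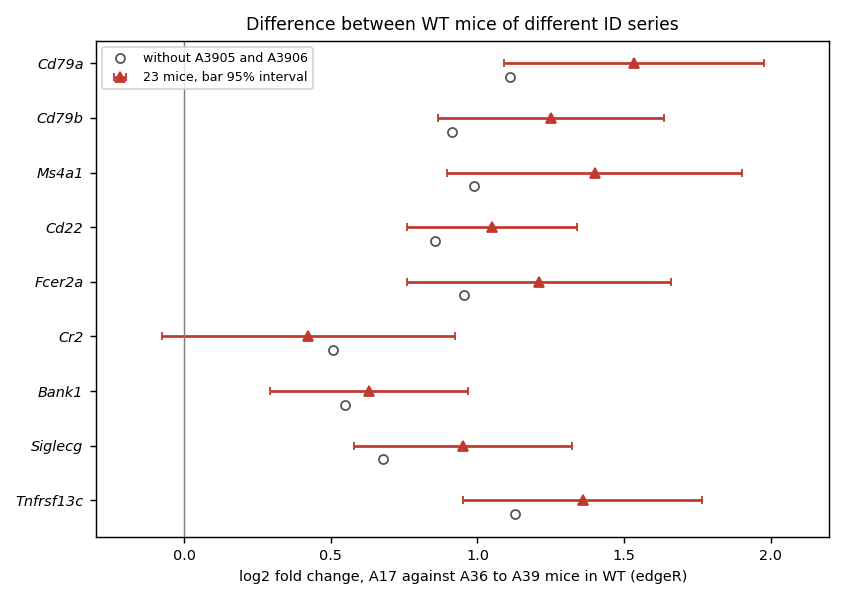
Log2 fold change of A17 against A36 to A39 mice among WT mice (horizontal axis, edgeR) for each gene, as triangles with 95% intervals from all 23 mice and as open circles without A3905 and A3906. All 9 triangles lie above 0 and the interval of Cr2 alone includes 0; without A3905 and A3906 the median of the circles is 0.91.

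The rest of the B-cell programme was read from gene lists. By diabetes in WT mice, 0 genes were called in antigen receptor signalling (of 21 tested), BAFF and APRIL signalling (of 8), homing and T-cell help (of 10), other mature B-cell genes (of 13), B-lineage transcription factors (of 14), pro-B and pre-B genes (of 15) and plasma cell genes (of 8), and the same counts of 0 held in KO mice. The median log2 fold change in WT mice was -0.04 in receptor signalling, -0.10 in BAFF and APRIL, 0.01 in homing, 0.00 in other mature genes, -0.06 in transcription factors, -0.15 in pro-B and pre-B genes and -0.13 in plasma cell genes. The pro-B and pre-B genes were the early counterpart of the set, and Vpreb2 (-0.79, adjusted p = 0.490) and Vpreb1 (-0.64, 0.555), both chains of the surrogate light chain, had the lowest values there. Blnk, an adaptor of the receptor, was at -0.26 (0.644) and Relb, a subunit of NF-kB downstream of BAFF, at -0.39 (0.104). The genes named here all lie at the low end of their lists. The highest values were 0.10 in receptor signalling, 0.22 in BAFF and APRIL and 0.60 in pro-B and pre-B genes. The homing list ran from -0.40 to 1.01. Within the A36 to A39 mice, where A3905 and A3906 are 2 of the 3 diabetic WT mice, 15.4% of all genes tested were called (7.76% higher and 7.6% lower in T1D). There 2 of 21 receptor signalling genes, 2 of 8 BAFF and APRIL genes, 3 of 10 homing genes, 3 of 14 transcription factors and 1 of 15 pro-B and pre-B genes fell, and 2 of 14 transcription factors and 1 of 15 pro-B and pre-B genes rose, so the shares in receptor signalling and in pro-B and pre-B genes were near or below the share over all genes. The median log2 fold change of the pro-B and pre-B genes was then -1.18. Immunoglobulin constant genes were not analysed here.

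In the A17 mice the called genes spread over several of these lists. Higher in the A17 mice were 7 of 21 receptor signalling genes, 3 of 10 homing genes, 4 of 13 other mature genes, 9 of 14 transcription factors, 2 of 15 pro-B and pre-B genes and 1 of 8 plasma cell genes, with 0 of 8 in BAFF and APRIL, where 1.41% of all genes tested were called higher. Blk was at a log2 fold change of 1.42 (edgeR adjusted p = 0.00161), Fcmr at 1.37 (2.94e-05), Pou2af1 at 1.34 (0.00827) and H2-Ob at 0.89 (0.00478). These 4 genes were named because their level was most like the mean of the 9 genes, which was highest in the A17 mice. Their high values here therefore follow in part from that choice, and H2-Ob is in none of these lists. The chemokine receptor Ccr7 was at 0.93 (0.0429) and the adaptor Blnk at 1.16 (0.0122), whereas Rasgrp3, an exchange factor of the same list, was at 0.07 (0.923). Without A3905 and A3906 the counts were 1 of 21, 1 of 10, 2 of 13, 1 of 14, 0 of 15 and 0 of 8, where 0.0975% of all genes tested were called higher and 0.00696% lower. The median log2 fold change of the pro-B and pre-B genes was 0.93 with all mice and 0.07 without A3905 and A3906.

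**Figure D5:**
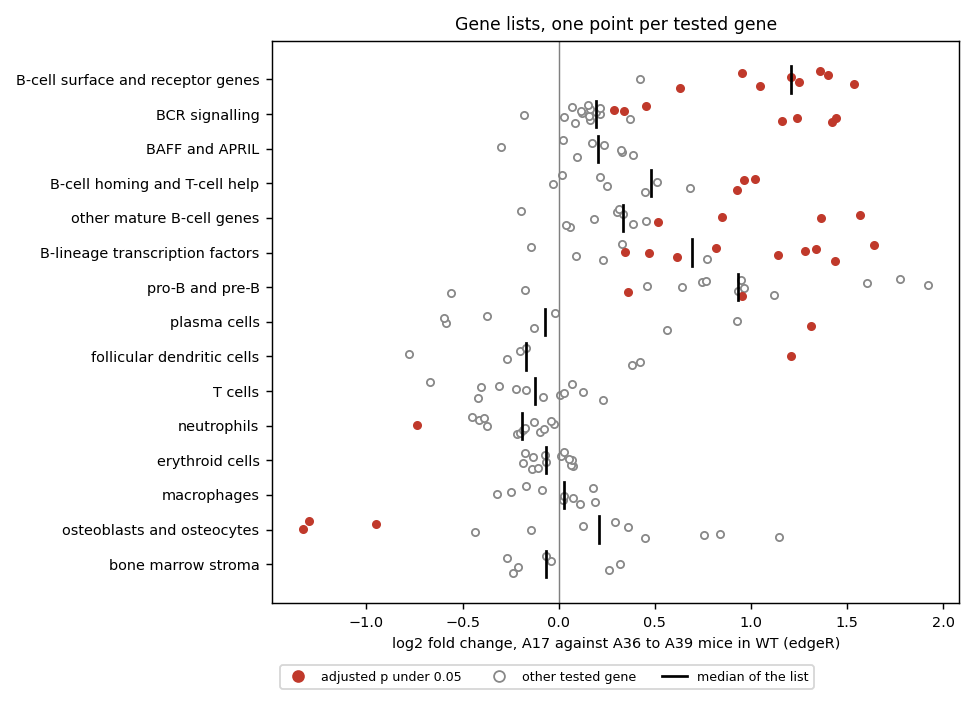
Log2 fold change of A17 against A36 to A39 mice among WT mice (horizontal axis, edgeR) for each tested gene of each list (rows), with genes at an adjusted p under 0.05 filled in red and the median of each list as a black bar. The median is 1.21 for the 9 B-cell surface and receptor genes, 0.93 for pro-B and pre-B genes, 0.69 for B-lineage transcription factors, -0.13 for T cells and -0.06 for erythroid cells.

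Among markers of other cells, some osteoblast and osteocyte genes and 1 neutrophil gene were called in the A17 mice. There 0 of 12 T-cell genes, 0 of 13 erythroid genes, 0 of 10 macrophage genes and 0 of 7 stromal genes were called, 1 of 14 neutrophil genes was lower and 3 of 12 osteoblast and osteocyte genes were lower, where 0.564% of all genes tested were called lower. Of the 7 follicular dendritic cell genes tested 1 was called, and this was Fcer2a itself. With A3905 and A3906 left out, all 13 erythroid genes were above 0 in the A17 mice (median log2 fold change 0.25, 0 called, against a median of -0.06 with all mice). All 12 osteoblast and osteocyte genes were then below 0 (median -0.50, 1 called, against 0.21 with all mice), and the part of these markers in the levels of the 9 genes was not tested. By diabetes in WT mice, 6 of 13 erythroid genes rose, among them Rhag (0.94, adjusted p = 0.0367) and Slc4a1 (0.64, 0.0367), 2 of 12 osteoblast and osteocyte genes fell, the T-cell gene Cd4 fell by 0.67 on the log2 scale (0.0458), and 0 neutrophil, macrophage or stromal genes were called, where 1.5% of all genes tested were called higher and 0.828% lower. Madcam1, of the follicular dendritic cell list, rose (3.69, 0.0209) at a mean of 0.1003 CPM in WT Control and 1.37 CPM in WT T1D. Without A3905 and A3906, 0 genes of any of these lists were called by diabetes in WT mice, where 0% of all genes tested were called (0 of 14364, with 1575 at an unadjusted p under 0.05).

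In A3905 and A3906 the summed TPM of the 9 genes was 140 and 176, against 385 to 945 in the other 21 mice. Pro-B and pre-B genes were lower still, at 65.9 and 70.6 against 259 to 561, with Igll1, Rag1, Rag2 and Vpreb2 at 0 in at least 1 mouse of the series. T-cell genes, at 38.1 and 36.7 against 36.5 to 70.3, plasma cell genes, at 225 and 217 against 181 to 388, and neutrophil genes, at 67477 and 63843 against 43103 to 75137, lay within the range of the other mice. Erythroid genes, at 4017 and 4793 against 2428 to 3886, lay above it. Macrophage genes, at 960 and 1031 against 1092 to 1663, and follicular dendritic cell genes, at 241 and 248 against 265 to 368, lay below it. All these sums are in TPM. The median log2 fold change by diabetes in WT over all genes tested was -0.24 in TPM (limma) and -0.01 on counts (edgeR). On counts, within the A36 to A39 mice, the neutrophil median by diabetes in WT was 0.50 and the macrophage median -0.16. A list within or below the range in TPM need not be so on counts. The part of these differences in the levels of the 9 genes was not tested.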

How the data were processed

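RNA was enriched with oligo dT, made into dUTP-stranded libraries and sequenced as paired 100 bp reads on DNBSEQ. Per the study's methods and the submitters' processing notes, the authors' provider filtered reads with SOAPnuke and aligned them with HISAT and Bowtie2 to GRCm38.p6 (versions not given in the sources used here). The deposited counts are expected counts from RSEM, given as whole numbers, and the deposited TPM values come from the same provider. Of 67228 count entries, 33212 without an Entrez ID held 0 counts. A minimum of 10 counts in 5 or more mice left 14364 genes, which entered edgeR 4.0.16 (TMM, quasi-likelihood, 4 groups in 1 fit, Benjamini-Hochberg over all genes, threshold 0.05) in R 4.3.3; DESeq2 1.42.0 and limma 3.58.1 on log2(TPM + 1) or log2(TPM + 0.1) were alternatives. Scripts were tested on simulated data. The 9 genes and the lists were chosen with earlier results of these data known; named genes were the 9, Sarm1, the 3 genes per list with the largest change by diabetes in WT, of which those of the B-cell lists and called ones are given, and the 5 genes most like the set, of which 1 is not reported here. Each library is 1 mouse, and no pair within a group looked like a library deposited again (chi-square over its degrees of freedom, 10.9 to 187 in 55 pairs). Count precision is limited by 16938101 to 20135592 counts per library.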

Additional observations from a re-analysis of the deposited data

Results flagged for a closer look

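Among 36 sets of values (9 genes in 4 groups, CPM), 6 held a mouse whose gap to its nearest neighbour exceeded Dixon's 95% critical value. Chance gives about 1 in 20 for independent sets. These sets share mice and most of the genes moved together, so the 6 cannot be set against that rate. Cd22 in WT Control measured 63.9 CPM in A1757, with 38.3 CPM in the next mouse, and Tnfrsf13c in the same group measured 29.4 CPM in A1757, with 14.8 CPM next. Cr2 in WT T1D measured 8.37 CPM in A1758, with 5.21 CPM next. Cd79b in KO T1D measured 110 CPM in A3675, with 84.6 CPM next. In KO Control, A3679 was low for Cd22 (24.9 CPM, next 35.9) and for Bank1 (12.4 CPM, next 19.4). A1757 and A1758 are A17 mice, and A3675 and A3679 are not.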

How the results depend on the processing

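The number of the 9 genes called stayed at 0 for diabetes in WT, in KO and averaged, for KO against WT in Control and for the interaction under every setting tried. For KO against WT in T1D it rose from 0 to 6 in the A36 to A39 mice only and to 5 with the ID series as a term, a setting chosen after seeing the data. For A17 against the other WT mice it was 8, fell to 4 without A3905 and A3906, and was 7 to 8 when any 1 mouse was left out. The log2 fold changes by diabetes in WT changed sign in 37 of 99 values. With limma on log2(TPM + 1), they were Cd79b -0.28, Ms4a1 -0.33, Cd22 -0.33, Fcer2a -0.21, Cr2 -0.11 and Bank1 -0.20. With limma on log2(TPM + 0.1), they were Cd79b -0.29, Ms4a1 -0.37, Cd22 -0.36, Fcer2a -0.24, Cr2 -0.19 and Bank1 -0.22. In the A36 to A39 mice only, they were Cd79b -0.47, Ms4a1 -0.62, Cd22 -0.45, Fcer2a -0.37, Bank1 -0.28 and Tnfrsf13c -0.11. With the ID series as a term, they were Cd79b -0.35, Ms4a1 -0.48, Cd22 -0.37, Fcer2a -0.27, Cr2 -0.058, Bank1 -0.13 and Tnfrsf13c -0.071. With that term and without A3905 and A3906 (also chosen after seeing the data), they were Ms4a1 -0.045, Cd22 -0.17, Fcer2a -0.0020, Cr2 -0.15 and Bank1 -0.048. With library size only, they were Ms4a1 -0.0043, Cd22 -0.065 and Cr2 -0.017. Without A3905 and A3906, they were Cd79a 0.40 and Siglecg 0.065. With the erythroid score as a covariate, they were Cd79a 0.037 and Cr2 -0.39. In KO mice Bank1 was -0.034 with library size only, -0.040 with limma on log2(TPM + 1), -0.043 with limma on log2(TPM + 0.1). Over leaving out 1 mouse at a time, the values by diabetes that changed sign ran, in WT, Bank1 -0.044 to 0.21, Cd22 -0.15 to 0.22, Cd79a -0.20 to 0.33, Cd79b -0.065 to 0.38, Cr2 -0.10 to 0.20, Fcer2a -0.12 to 0.43, Ms4a1 -0.10 to 0.36, Siglecg -0.39 to 0.0070, and in KO, Bank1 -0.092 to 0.083, Cd22 -0.0030 to 0.13, Cd79b -0.10 to 0.036, Siglecg -0.15 to 0.015, Tnfrsf13c -0.16 to 0.030. In the 4 other comparisons of groups, 98 of 396 values changed sign across settings and 70 of 828 when 1 mouse was left out, and in the A17 comparison 0 of 72 and 0 of 207 did. The cause was not tested. Low counts limit Cr2 most. No paired analysis was possible because mouse IDs are not shared between groups.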
